A study of Mus musculus with 4 samples.

Results

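The 8 AMPA receptor genes described here were followed across the cell types of the mouse hippocampus and across 4 genotypes of monoacylglycerol lipase (MAGL, gene Mgll). They were chosen by name out of the 20211 genes listed in all 4 libraries: the 4 genes of the pore-forming subunits, Gria1, Gria2, Gria3 and Gria4, and 4 genes of auxiliary subunits, Cnih2, Cnih3, Shisa6 and Shisa9. All 8 were listed in each library. The series title asks how excess endocannabinoid in neurons bears on cognition, and MAGL degrades the most abundant of the brain's endocannabinoids. Nuclei of hippocampus, freed by douncing and cleaned on iodixanol, were profiled with a kit that reads RNA and open chromatin of the same nuclei, and the RNA counts of unique molecular identifiers (UMIs) are described here. There was 1 library per genotype. The labels name a wild type, a knockout of MAGL in the whole animal (the total-labelled library), a knockout in astrocytes (astrocyte-labelled) and a knockout in neurons (neuron-labelled). The sources used here state neither age, sex nor strain, nor the number of animals pooled, the part of Mgll removed and the driver that directed the removal to astrocytes or neurons. Values of the 4 libraries are always given in the order wild type, total-labelled, astrocyte-labelled, neuron-labelled.

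AMPA receptors are the glutamate-gated channels that carry most of the fast excitatory current between neurons, and their number at the synapse is what changes in many forms of hippocampal plasticity. Each receptor is a tetramer of the subunits GluA1 to GluA4, the products of Gria1 to Gria4, surrounded by auxiliary proteins that guide it to the membrane and set how fast it closes. Cornichons (Cnih2, Cnih3), the Shisa family (Shisa6, Shisa9) and the transmembrane AMPA receptor regulatory proteins, or TARPs (Cacng genes), are the main auxiliary families. GluA2 is edited at the Q/R site of its pore, after which the channel hardly passes calcium, so the proportion of GluA2 is a standard way to describe the receptors of a neuron type.

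The bases around the Q/R site show how alike the pore genes are and where GluA2 is set apart from the others. Each sequence is the coding strand, 30 bases before and 30 after the codon of the site, joined across exons 11 and 12 of the transcript with the longest coding sequence in GENCODE M21 (GRCm38). The capitals mark the codon, which reads glutamine in the genome in all 4 genes.
Gria1: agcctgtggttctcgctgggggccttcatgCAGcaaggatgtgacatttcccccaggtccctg
Gria2: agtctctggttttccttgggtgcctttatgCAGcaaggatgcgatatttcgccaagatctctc
Gria3: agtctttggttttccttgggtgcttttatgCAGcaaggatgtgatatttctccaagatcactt
Gria4: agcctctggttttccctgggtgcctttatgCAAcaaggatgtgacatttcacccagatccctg
The codon lies at chr11:57243094-57243096 on the plus strand in Gria1, chr3:80706911-80706913 on the minus strand in Gria2, chrX:41610265-41610267 on the plus strand in Gria3 and chr9:4464137-4464139 on the minus strand in Gria4. Of the 63 bases, Gria2 and Gria3 shared 57, Gria1 and Gria4 shared 55, and the other pairs shared 49 to 54. In Gria2 transcripts the enzyme encoded by Adarb1 edits the adenosine of this codon, which is then read as arginine. Counts per gene do not read single bases, so the values below hold Gria2 transcripts edited or not.

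The genes lie on 7 chromosomes, and all are protein coding. Gria1 (ENSMUSG00000020524.16) spans chr11:57011387-57330244, Gria2 (ENSMUSG00000033981.14) chr3:80681450-80802835, Gria3 (ENSMUSG00000001986.16) chrX:41400854-41678601 and Gria4 (ENSMUSG00000025892.16) chr9:4417896-4796234. Cnih2 (ENSMUSG00000024873.7) spans chr19:5092868-5098521, Cnih3 (ENSMUSG00000026514.14) chr1:181352628-181460641, Shisa6 (ENSMUSG00000053930.13) chr11:66211725-66525964 and Shisa9 (ENSMUSG00000022494.15) chr16:11984113-12270902. Cnih2 is the short gene of the group at 5.654 kb, and the other 7 are between 108.014 and 378.339 kb long. Nuclear RNA is rich in unspliced transcripts, of which a long gene has more to capture, so levels were compared between cell types within a gene and not between genes.

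The libraries held 8945 to 31243 barcodes and 81623644 to 193307038 UMIs, and the total-labelled library was the largest and the shallowest per nucleus (median 5456 UMIs, against 7448 to 8904 in the others). After filtering, 51320 nuclei were kept, of which 15107 in 16 clusters were left unnamed. Some of these clusters had fewer than 3 markers of a type, and others passed a list but also carried markers of another type. Named classes are nuclei that resemble a type on its markers; 18 had at least 50 nuclei, and 8 neuron classes with at least 100 nuclei in each library (4 excitatory, 4 inhibitory) were used to compare genotypes. The libraries differed in make-up. Medium spiny neurons numbered 32, 738, 0 and 1, choroid plexus nuclei 102, 4, 5 and 3, and oligodendrocytes 370, 1380, 43 and 58. With 1 library per genotype, such differences cannot be told apart from genotype. Barcode sequences found in more than 1 library numbered 1580. Nuclei with Xist but no Y-linked UMI and nuclei with the reverse numbered 4216 and 3733 in the wild-type library, 4319 and 4174 in the astrocyte-labelled and 3559 and 4052 in the neuron-labelled, but 3 and 19158 in the total-labelled library. They are called female and male nuclei below. Mgll itself stood at 121, 103, 139 and 130 CPM in dentate granule neurons and at 62.7, 44.2, 69.3 and 69.3 CPM in CA1 neurons, and over the 8 classes it was below wild type in 6, 3 and 3 of them. Whether UMIs lie inside the deleted part is unknown, so Mgll does not check the labels. No genotype had a replicate. No test was made, and every interval is a 95% interval that covers counting error only.

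Levels are summed UMIs of the class in a library, scaled to counts per 1000000 UMIs (CPM). A class that holds less of a transcript in such a sum can have fewer nuclei with it or less of it per nucleus, and these cannot be told apart by the sum. Orders of levels are given among the named classes, and the 15107 nuclei of unnamed clusters stand outside them. For 4 members an unnamed cluster passed the highest named class, with both pooled over libraries. The cluster led by Vgll3 (1111 nuclei) held Shisa6 at 1514 CPM, against 1225 in CA2/CA3 neurons. The cluster led by Zic4 (920 nuclei) held Gria2 at 3059 and Cnih2 at 64.5 CPM, against 2950 and 57.3 in CA1 neurons, and that led by Gm6260 (1265 nuclei) held Gria3 at 1730 CPM, against 1369 in somatostatin neurons. Gria1 reached 3704 CPM in the Zic4 cluster, between somatostatin (3929) and CA1 neurons (3366). Gria1, which encodes the subunit GluA1 whose delivery to synapses is central to hippocampal potentiation, was high in 5 of the named classes. In somatostatin inhibitory neurons it stood at 3206, 4065, 4402 and 3944 CPM. In CA1 pyramidal neurons it stood at 3061, 3387, 3564 and 3380 CPM. Parvalbumin inhibitory neurons (2547 to 3066 CPM), CA2/CA3 pyramidal neurons (2692 to 3041) and dentate granule neurons (2619 to 2927) followed, and no neighbours among these 5 classes parted beyond their spread over libraries. Among neuron classes, CCK inhibitory neurons came below a gap, at 1323 to 1555 CPM. Medium spiny neurons held 1257 to 1407 and Cajal-Retzius cells 1210 to 1273 CPM, each in 2 libraries. Subicular or cortical excitatory neurons held 820 to 1096 CPM, Lamp5 inhibitory neurons 711 to 818 and Vip inhibitory neurons 494 to 717. Outside neurons, endothelial cells held 1311 to 2238 CPM and astrocytes 683 to 1651, ranges that overlapped that of CCK neurons. The class named endothelial cells (262 nuclei) passed 8 of 8 endothelial markers. Its leading genes also included the pericyte markers Vtn and Rgs5 and the leptomeningeal markers Bnc2 and Slc6a20a, so it may hold other vascular and meningeal nuclei. Thalamic excitatory neurons, measured in 2 libraries, held 295 to 318 CPM. Gria1 thus did not follow the line between excitatory and inhibitory neurons.

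Gria2 did follow that line among the main classes, but not beyond them: thalamic excitatory neurons held 579 to 711 CPM and medium spiny neurons, which are inhibitory, 1732 to 1933. Gria2 was highest in CA1 neurons, at 2929, 3059, 2866 and 2949 CPM, and in CA2/CA3 neurons, at 2813, 3012, 2699 and 2844 CPM, and these classes overlapped. Dentate granule neurons, at 2570, 2592, 2407 and 2529 CPM, lay below both in every library, and subicular or cortical neurons, at 1952 to 2139 CPM, lay below the granule neurons. The 5 inhibitory classes held 1062 to 1451 CPM. Outside neurons, Gria2 stood at 1760 to 1917 CPM in astrocytes and 1244.5 to 1999 in endothelial cells. It stood at 1416 to 1779 CPM in oligodendrocyte precursors and 1725 to 1970 in committed oligodendrocyte precursors. In oligodendrocytes it was 245 CPM in the wild-type and 90.5 in the total-labelled library, the libraries with 370 and 1380 such nuclei, and 907 and 611 in the others, with 43 and 58.

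Gria3, the X-linked subunit gene, separated inhibitory classes from each other. Somatostatin neurons held 1232, 1383, 1440 and 1403 CPM, and parvalbumin neurons held 1131, 1296, 1389 and 1304 CPM, overlapping CA1 neurons at 1120 to 1268 CPM. Lamp5 neurons held 607 to 679 CPM and CCK neurons 248 to 293. Vip neurons held 91.8 to 108 CPM, the least of the 5 inhibitory classes in every library. Granule neurons (814 to 934 CPM) and CA2/CA3 neurons (772 to 861) lay between and overlapped.

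Gria4, whose product opens and closes fast, was highest in parvalbumin neurons. They held 2736, 3072, 3094 and 2902 CPM. Somatostatin neurons held 2052 to 2863 CPM, Lamp5 neurons 2093 to 2147, CCK neurons 1518 to 1791 and Vip neurons 1177 to 1341. The excitatory main classes were all lower, with 429 to 553 CPM in subicular or cortical, 246 to 303 in CA1, 198 to 256 in CA2/CA3 and 155 to 188 in granule neurons. Outside the main classes, thalamic excitatory neurons held 1721 CPM in the total-labelled and 1410 in the astrocyte-labelled library, and Cajal-Retzius cells, which are glutamatergic too, held 1397 in the wild-type and 1960 in the total-labelled library. The oligodendrocyte lineage held Gria4 too. Oligodendrocyte precursors held 1104, 1339 and 759 CPM in the first 3 libraries, the last from 29 nuclei. In those 29 nuclei Gria1 made up 28.3% of the summed UMIs of Gria1 to Gria4. It made up 3.6% in the wild-type and 2.6% in the total-labelled precursors. Oligodendrocytes held Gria4 at 500, 543, 353 and 218 CPM, the last 2 from 43 and 58 nuclei.

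**Figure D1:**
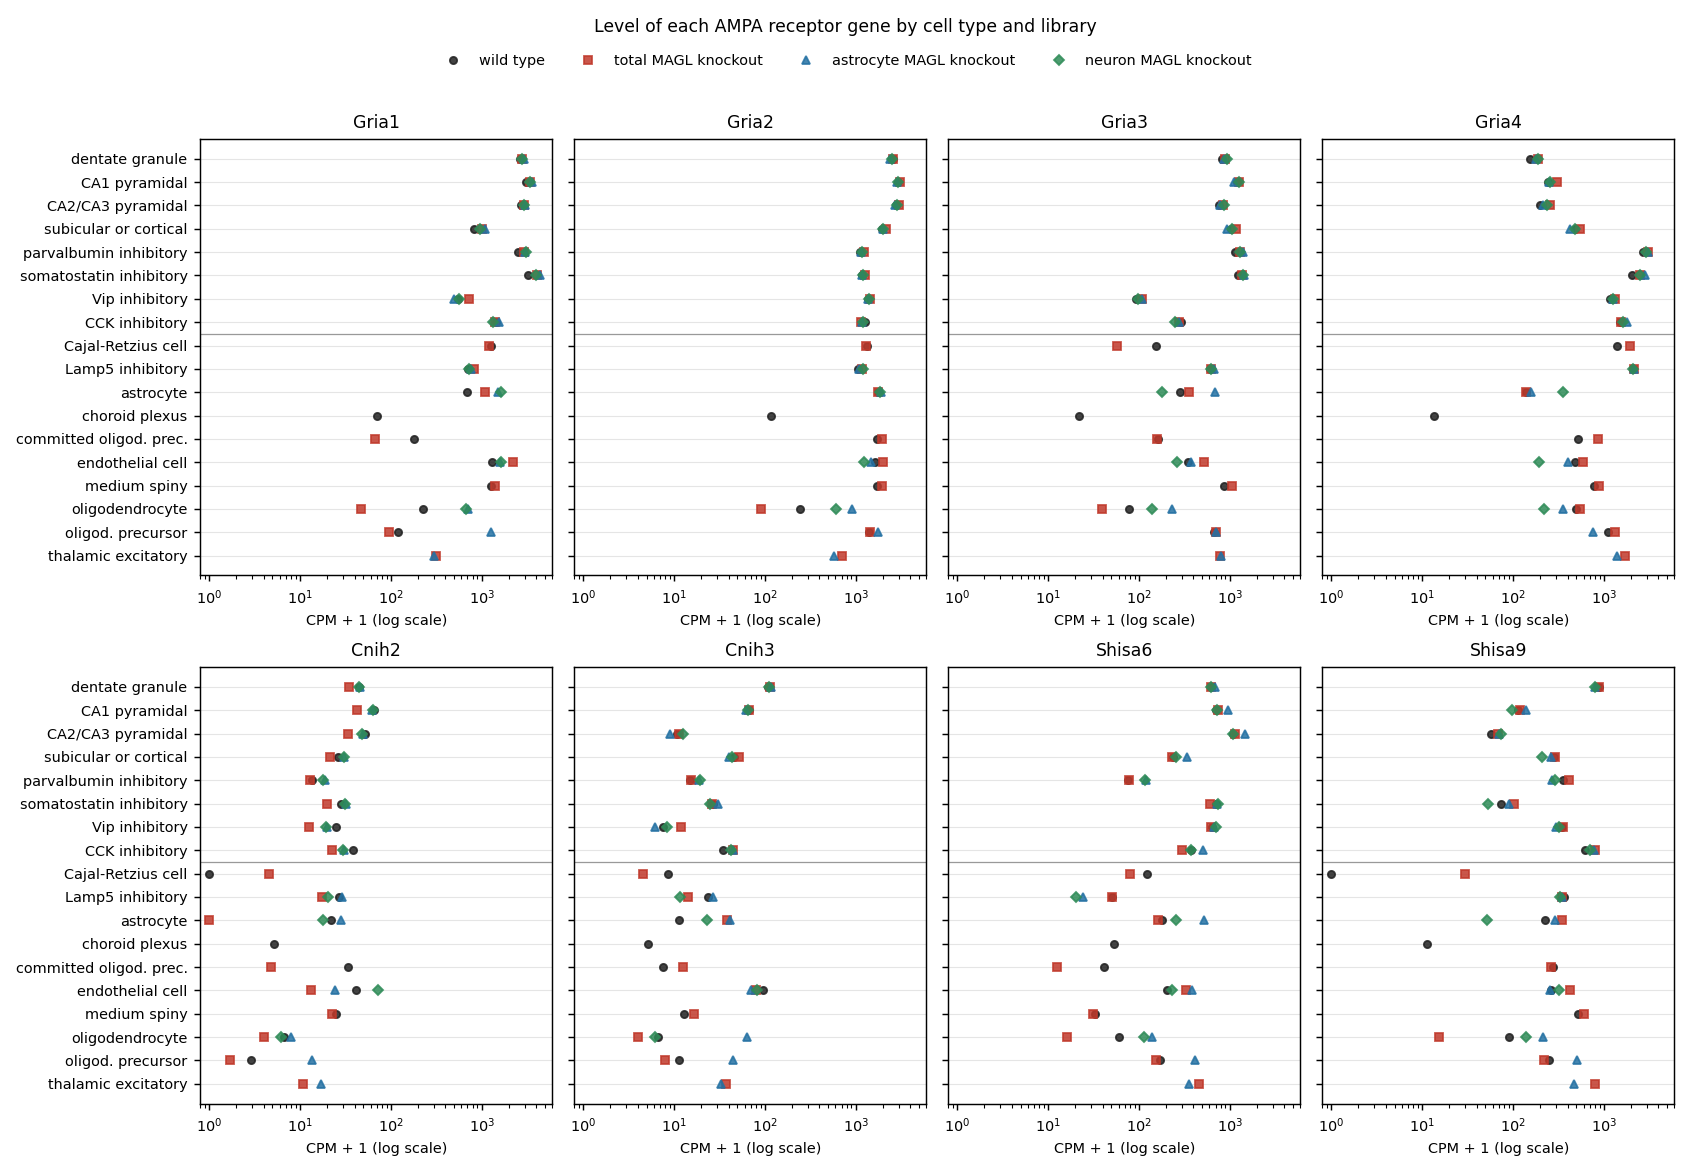
Each panel shows 1 gene; the horizontal axis is CPM + 1 on a log scale, rows are cell types with the 8 main neuron classes on top, and each point is 1 library. Among the 8 main classes Gria4 sits to the right in the inhibitory rows (1177 to 3094 CPM) and Gria2 in the excitatory rows, and Shisa9 in granule neurons (802 to 880 CPM).

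Cnih2 and Cnih3 encode cornichons, which slow the closing of the channel and help export it from the endoplasmic reticulum. Among the named neuron classes Cnih2 was highest in the 3 principal classes of the hippocampus, with 64.6, 42.0, 61.1 and 63.3 CPM in CA1, 50.6, 32.6, 48.6 and 47.1 CPM in CA2/CA3 and 44.0, 33.8, 45.1 and 44.0 CPM in granule neurons. The second value of each set, that of the total-labelled library, was the lowest of the 4. Parvalbumin neurons held 12.1 to 17.7 CPM. Cnih3 had another order. Granule neurons held 107, 113, 115 and 112 CPM, parted from CA1 neurons at 66.9, 66.7, 60.8 and 65.1 CPM, and CA2/CA3 neurons held 9.95, 10.3, 8.03 and 11.5 CPM. Of the 2 cornichon genes, CA2/CA3 neurons therefore had Cnih2 near the level of granule neurons and Cnih3 below it in every library.

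Shisa6 encodes an auxiliary subunit that keeps receptors from desensitizing and holds them at the synapse. It was highest in CA2/CA3 neurons, at 1078, 1135, 1493 and 1096 CPM, and these parted from every other named class. CA1 neurons (701, 743, 955 and 733 CPM), somatostatin neurons (607 to 734), Vip neurons (623 to 711) and granule neurons (616 to 694) followed. Neighbours in this order overlapped, but CA1 neurons parted from granule neurons. Below all of these came CCK neurons at 301 to 503 CPM and subicular or cortical neurons at 230 to 336. Parvalbumin neurons held 75.3, 76.5, 118 and 116 CPM, and Lamp5 neurons 19.2 to 50.3. Somatostatin neurons thus lay above parvalbumin neurons in every library. Shisa9, whose product modulates short-term plasticity and is known from granule cells, was highest there, at 879, 880, 802 and 809 CPM. CCK neurons followed at 623, 796, 784 and 699 CPM. Lamp5, Vip and parvalbumin neurons overlapped between 269 and 413 CPM. CA1 neurons held 96.9 to 137 CPM, somatostatin neurons 52.4 to 101 and CA2/CA3 neurons 55.9 to 72.7, so the class with most Shisa6 was among those with least Shisa9.

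Each nucleus was also thinned to 2000 UMIs, and the share of nuclei with a UMI was set beside that in wild-type oligodendrocytes, a class that should lack most of these neuronal genes. There, with 201 nuclei (169 shallower ones left out, median depth 2062 UMIs), Gria1 was found in 6.5% (3.5 to 10.8), Shisa6 in 4.0% (1.7 to 7.7), Shisa9 in 4.5% (2.1 to 8.3), and Cnih2 and Cnih3 in 0.5% each (0.0 to 2.7). Without thinning the shares were 4.3% for Gria1 and 3.5% for Shisa6. The 237 Gria1 UMIs of the 370 wild-type oligodendrocytes thus lay in few of the nuclei, so the share is a comparison between classes and not a measure of RNA spread evenly over nuclei. Other non-neuronal nuclei held more. Pooled over libraries, Gria1 stood at 165 CPM in oligodendrocytes, 1788 in endothelial cells and 1632 in the unnamed cluster led by Siglech. That cluster (160 nuclei, median depth 1562 UMIs) passed 9 of 9 microglia markers. It was left unnamed because it carried oligodendrocyte markers too, so it is not a clean microglia class. Shisa6 stood at 39.8, 281 and 475 CPM in the same order. The oligodendrocyte share is therefore no upper limit for these genes outside neurons. Wild-type CA1 neurons (9 of them left out, median 11281 UMIs) held Gria2 in 99.6% of nuclei, Gria1 in 98.5% and Cnih2 in 11.5% (52.9% unthinned). Wild-type granule neurons (59 left out, median 7981.5 UMIs) held Shisa9 in 76.7% (95.5% unthinned), and parvalbumin neurons (3 left out, median 10130.5 UMIs) held Gria4 in 93.4%. Some low shares could not be parted from that of oligodendrocytes. In the wild-type library Cnih3 was found in 0.5% (0.1 to 1.6) of CA2/CA3 nuclei, 0.7% (0.1 to 2.5) of parvalbumin nuclei and 0.6% (0.0 to 3.1) of Vip nuclei, with intervals that overlapped that of oligodendrocytes. Shisa6 in parvalbumin neurons (7.0%, 4.3 to 10.6), Cnih2 in parvalbumin neurons (2.1%, 0.8 to 4.5) and Shisa9 in CA2/CA3 neurons (8.2%, 5.8 to 11.2) had intervals that overlapped theirs too. Gria4 in the oligodendrocytes themselves was found in 50.7% (43.6 to 57.9).

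The make-up of the pore transcripts was described by the share of Gria2 in the summed UMIs of Gria1 to Gria4. The share depends on the length of each gene, so it is compared between classes and not read as a subunit ratio. Among the named neuron classes it was highest in subicular or cortical neurons, at 45.6%, 44.0%, 44.7% and 44.6%. CA2/CA3 neurons (40.1% to 43.5%), Vip neurons (40.1% to 42.8%), granule neurons (37.7% to 41.7%) and CA1 neurons (36.7% to 39.4%) followed. CCK neurons held 24.5% to 28.0% and Lamp5 neurons 23.5% to 26.0%. Parvalbumin neurons, at 14.7%, 14.5%, 13.2% and 13.8%, and somatostatin neurons, at 15.2%, 13.7%, 12% and 13.2%, held the lowest shares among named neuron classes. Thalamic neurons were next, at 20.1% in the total-labelled and 18.8% in the astrocyte-labelled library. Unnamed clusters stand outside this order. That led by Hapln1 (932 nuclei) passed 5 of 7 Lamp5 markers. Pooled over libraries it held Gria1 to Gria4 at 3344, 770, 318 and 1958 CPM, so low Gria2 was not confined to parvalbumin and somatostatin neurons. Outside neurons the share reached 44.7% to 61.8% in astrocytes and 64.5% to 66.8% in committed oligodendrocyte precursors. Endothelial cells held 37.3% to 43.3%. The astrocytes also held Gria1 at 683 to 1651 CPM, and the endothelial cells at 1311 to 2238 CPM. Whether such RNA came from neurons was not tested. In the wild-type library, with 23461 and 24404 UMIs of the 4 genes, the intervals of parvalbumin and somatostatin neurons were 14.3% to 15.2% and 14.8% to 15.7%. The gap between these 2 classes and the lowest of the 4 excitatory main classes was 23.5 to 24.2 percentage points within a library, against a spread between libraries of 1.45 to 4.00 points within a class.

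**Figure D2:**
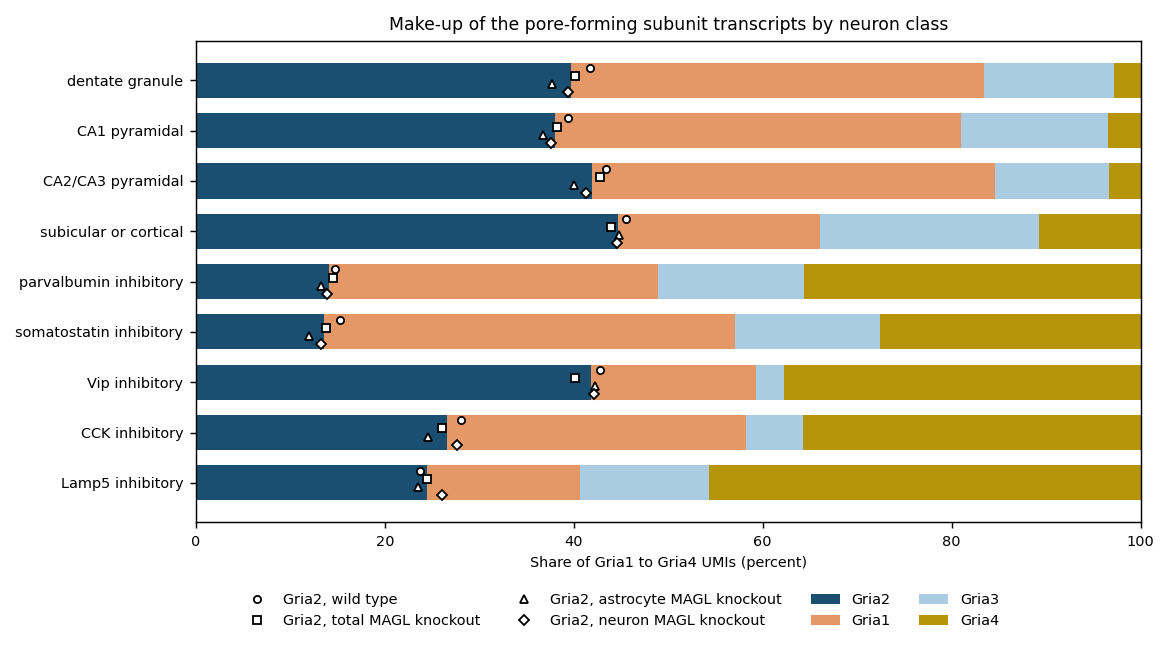
Stacked bars give, for each neuron class, the share in percent of the summed UMIs of Gria1 to Gria4 taken by each gene, as the mean over libraries, and the points give the Gria2 share of each library. The Gria2 part takes 36.7% to 45.6% in the 4 excitatory main classes and 12% to 15.2% in parvalbumin and somatostatin neurons, where Gria4 takes 26.8% to 36.4%.

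The other 3 genes filled the remainder in different ways. Somatostatin neurons held 41.9% to 44.5% Gria1 and 26.8% to 29.0% Gria4, while parvalbumin neurons held 33.9% to 36.3% Gria1 and 34.4% to 36.4% Gria4. Vip neurons had a Gria2 share like that of CA2/CA3 neurons, but next to 36.9% to 39.0% Gria4 and 15.4% to 19.8% Gria1, where CA2/CA3 neurons held 3.1% to 3.6% Gria4 and 41.5% to 45.1% Gria1. Lamp5 neurons had the highest Gria4 share of the named neuron classes with 4 libraries, 44.9% to 46.9%. Inhibitory neurons were therefore not of 1 kind in their pore transcripts.

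Members also varied within the named classes, which were made of clusters found without these genes. In the CA1 class, a cluster of 109 nuclei led by Lipm is left out, since it had 17 wild-type nuclei, below the minimum of 20. The 2 large clusters of the class were led by 4921539H07Rik and by Tnni3k. Gria4 stood at 116, 144, 104 and 137 CPM in the first and at 400, 486, 415 and 434 CPM in the other. Shisa9 stood at 38.4 to 47.6 CPM against 190 to 250 CPM, and Cnih3 at 32.1 to 36.9 CPM against 96.5 to 112 CPM. Shisa6 and Cnih2 leaned the opposite way, with Shisa6 at 813 to 1098 CPM in the first and 571 to 791 CPM in the other. In the CA2/CA3 class, Shisa9 stood at 28.3 to 45.9 CPM in the cluster led by Ifi203 and at 182 to 206 CPM in that led by Lrp2. The granule class showed smaller steps. Its cluster led by C1ql2 held Shisa9 at 705 to 825 CPM and that led by Glis3 at 869 to 949 CPM, and Cnih3 stood at 79.0 to 101 against 119 to 132 CPM. The clusters differed in median depth too. It was 7709 and 9137 UMIs in the CA1 clusters led by 4921539H07Rik and Tnni3k, and 12403 and 2134 in those led by Ifi203 and Lrp2. In the granule clusters led by C1ql2 and Glis3 it was 4453 and 7708.5. The part of depth, and whether such clusters are subtypes, regions or states, was not tested.

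The knockout-labelled libraries were then compared with the wild-type library in the 8 main classes, as the log2 ratio of CPM with its exact conditional interval. All 3 comparisons share the wild-type library, so they are not independent of each other. The classes of a comparison come from the same 2 libraries and are not independent either. Counts of classes above or below wild type are therefore descriptions. How many of all genes lay on the same side in 7 or 8 of 8 classes was not counted. A member in a class with at least 100 UMIs over the libraries was counted, which held for 62 of 64 pairs of member and class (all but Cnih2 and Cnih3 in Vip neurons), and a pair was called higher at 25% or more above wild type and lower at 20% or more below it, the same fold in both directions. In the total-labelled library 6 of 62 pairs were higher, where 8.03% of all genes tested in these classes were, and 5 were lower, where 16.1% of all genes were. With the median ratio of all genes set to 0 the split was 10 higher and 5 lower, or 16.1% and 8.06% of pairs, against 9.84% and 13.7% of all genes. In the astrocyte-labelled library 12 pairs were higher against a background of 8.99%, and 1 was lower against 16.6%. In the neuron-labelled library 4 pairs were higher against 10%, and 3 were lower against 15.6%. No pair passed in the same direction in all 3 libraries, where 2.5% of all genes were higher and 4.98% lower. The total- and neuron-labelled libraries, in which neurons should lack MAGL, parted from the other 2 by that fold for none of the 62 pairs, against 2.77% of all genes. The higher pairs in the astrocyte-labelled library made up 19.4% of pairs, above their background, and 5 of the 12 were Shisa6. The lower pairs made up 8.06%, 1.61% and 4.84% of pairs, below the background of all genes in each library. That background includes many short genes, while all members but Cnih2 are longer than 100 kb. Of genes of 100 kb and over, 4.89% to 13.3%, 6.77% to 14.2% and 4.60% to 13.9% were lower, by class. The 5 lower pairs of the total-labelled library were all Cnih2. The part of gene length in these shares was not tested.

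**Figure D3:**
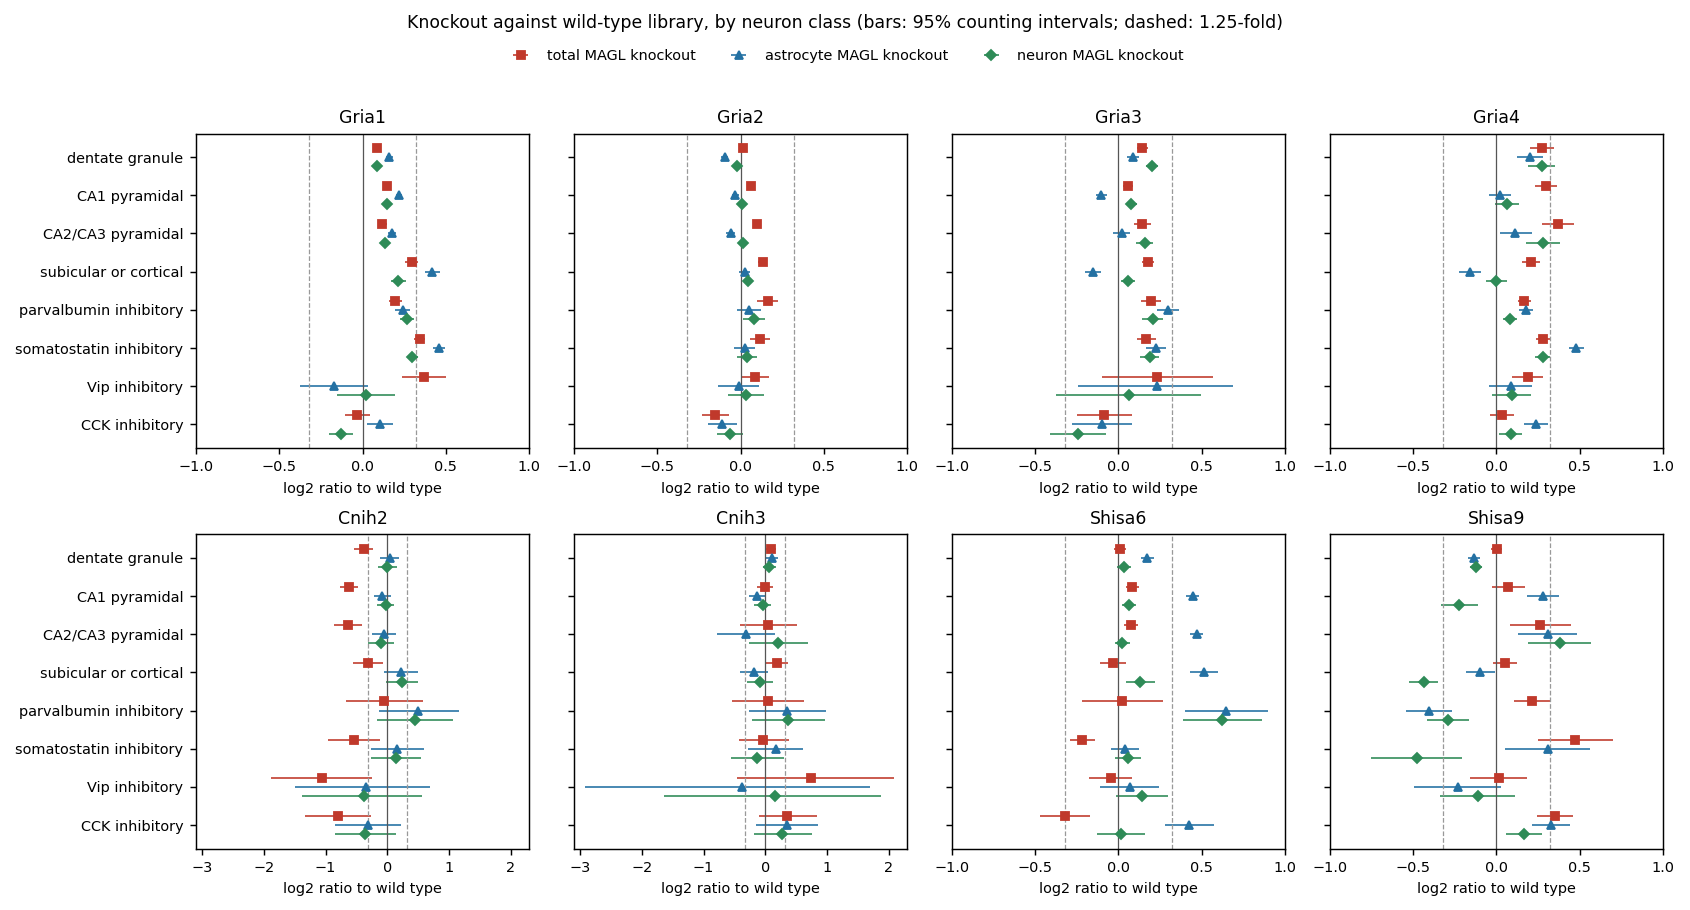
Panels show the 8 genes; the horizontal axis is the log2 ratio of each knockout-labelled library to wild type, rows are the 8 main neuron classes, bars are 95% counting intervals and dashed lines mark 25% above and 20% below wild type. Shisa6 in the astrocyte-labelled library lies at or right of 0.42 in 5 classes, Cnih2 in the total-labelled library lies left of 0 in all 8 (in Vip neurons with under 100 UMIs), and Gria2 stays between -0.15 and 0.16.

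Shisa6 was higher than wild type in the astrocyte-labelled library in 8 of 8 classes, past the threshold in 5, and the median ratio over classes was 0.44. It was higher in 8 of 8 classes of the neuron-labelled library too, but past the threshold in 1, with a median of 0.06. In the total-labelled library it was higher in 4 and lower in 4, with a median of -0.01. In CA1 neurons its level was 701, 743, 955 and 733 CPM, so the astrocyte-labelled library stood apart from the other 3, at a log2 ratio of 0.45 (0.41 to 0.48). In CA2/CA3 neurons the ratio was 0.47 (0.43 to 0.51), from the levels given above. Subicular or cortical neurons held 235, 230, 336 and 258 CPM, a ratio of 0.51 (0.43 to 0.60). CCK neurons held 375, 301, 503 and 379 CPM, a ratio of 0.42 (0.28 to 0.57), which was 0.28 among nuclei of 4000 to 12000 UMIs. In these classes the astrocyte-labelled library was the highest of the 4 and the neuron-labelled library stayed within 0.13 of wild type. Granule neurons had a smaller ratio, 0.17 (0.13 to 0.21), and Vip and somatostatin neurons had 0.07 (-0.11 to 0.24) and 0.04 (-0.05 to 0.12), differences not detectable at this depth. In parvalbumin neurons both the astrocyte- and neuron-labelled libraries were higher, at 0.65 (0.40 to 0.90) and 0.62 (0.39 to 0.86), at a level where the interval of the share of nuclei overlapped that of oligodendrocytes. The neuron-labelled value was 0.28 with each nucleus typed by its own markers and 0.18 among nuclei of 4000 to 12000 UMIs, inside the threshold. In the 2 large CA1 clusters the astrocyte-labelled ratio was 0.43 and 0.46, and in the 2 CA2/CA3 clusters 0.48 and 0.44. The summed markers of astrocytes in CA1 nuclei, 11 genes with none at 0, stood at 62.5, 60.7, 65.7 and 63.1 CPM, and their part in the result was not tested. In CA2/CA3 nuclei the subicular or cortical marker list stood at 2273, 2217, 2674 and 2108 CPM, highest in the same library as Shisa6, and its part was not tested either.

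Female and male nuclei of 1 library were handled together, and the difference between them is given beside these ratios. They belong to the same library, so they are not replicates of a genotype. They do not show how libraries of 1 genotype vary. In wild-type CA1 neurons Shisa6 stood at 620 CPM in female and 786 CPM in male nuclei, in the astrocyte-labelled library at 948 and 973, and in the neuron-labelled library at 648 and 809. Both astrocyte-labelled values thus exceeded the other 4, while female nuclei lay below male ones by 0.34 and 0.32 on the log2 scale in the wild-type and neuron-labelled libraries. In CA2/CA3 neurons the pairs were 964 and 1226, 1526 and 1480, and 1012 and 1204 CPM, and both astrocyte-labelled values again exceeded the other 4. Against wild-type nuclei of the same sex, the astrocyte-labelled ratio in CA1 was 0.61 in female and 0.31 in male nuclei, and in CA2/CA3 it was 0.66 and 0.27. It was positive in 7 of 8 classes in female and 8 of 8 in male nuclei, with Vip neurons the exception at -0.12. Parvalbumin neurons of the astrocyte-labelled library held 148 CPM in female and 84.9 CPM in male nuclei, and against wild-type nuclei of the same sex the ratios were 0.88 and 0.25. In male nuclei alone the CA1, CA2/CA3 and parvalbumin values of Shisa6 were therefore inside the threshold. The subicular or cortical value, 0.46, was past it. So was that of CCK neurons, with 382 CPM in wild-type and 519 CPM in astrocyte-labelled male nuclei. Over all 8 members, female and male nuclei differed by the same fold in 14 of 62 wild-type pairs, in 9 astrocyte-labelled and in 8 neuron-labelled pairs, against 29.5%, 31% and 28.5% of all genes. The sums within 1 sex are smaller, and how many animals each sex stands for is not known.

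**Figure D4:**
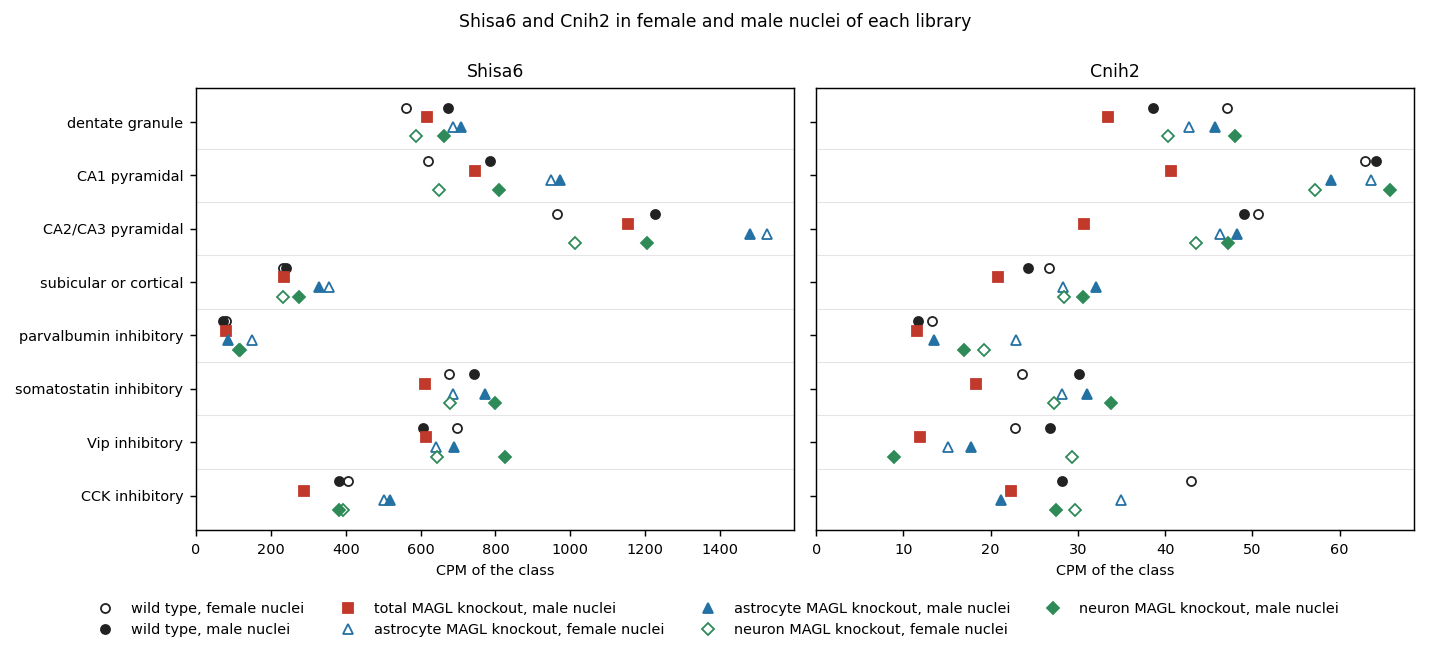
CPM of Shisa6 and Cnih2 in female and male nuclei of each library, by main neuron class; the total-labelled library has male nuclei only. In CA1 and CA2/CA3 rows both Shisa6 points of the astrocyte-labelled library (948 and 973, 1526 and 1480 CPM) lie right of all others, and Cnih2 of the total-labelled library lies left.

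Cnih2 was lowest in the total-labelled library in all 8 classes, including Vip neurons, where it had under 100 UMIs. In CA1 neurons the level was 64.6, 42.0, 61.1 and 63.3 CPM, a log2 ratio of -0.62 (-0.77 to -0.47), or 0.65 times the wild-type level. CA2/CA3 neurons gave -0.63 (-0.86 to -0.41), granule neurons -0.38 (-0.53 to -0.23) and somatostatin neurons -0.54 (-0.96 to -0.11). CCK neurons held 37.1, 21.4, 29.8 and 28.9 CPM, a ratio of -0.80 (-1.33 to -0.26). The ratio was negative in 7 of the 7 classes with enough UMIs, with a median of -0.54 and 5 past the threshold, though in parvalbumin neurons (-0.05, -0.66 to 0.58) the difference was not detectable. In the astrocyte- and neuron-labelled libraries 4 of these 7 classes were higher and 3 lower, and the 1 lower call, in CCK neurons of the neuron-labelled library, was -0.36 (-0.84 to 0.13). The lower Cnih2 was seen in both large CA1 clusters (-0.68 and -0.52), both CA2/CA3 clusters (-0.78 and -0.39) and both granule clusters (-0.43 and -0.40). In male nuclei alone it remained negative in 8 of 8 classes, with -0.66 in CA1 and -0.68 in CA2/CA3 neurons, but in granule neurons, at -0.20, it was then inside the threshold. In somatostatin neurons the ratio was -0.30 with doublets kept and -0.22 among nuclei of 4000 to 12000 UMIs. The total-labelled library also had the lowest median depth of these classes, 6617 UMIs in CA1 nuclei against 8014 to 11281 in the others. Cnih2 is shorter than 10 kb, and the median ratio of all genes below that length in the total-labelled library was -0.25 to -0.16 over the classes, against 0.00 to 0.04 for genes of 100 kb and over. The parts of depth and gene length in the Cnih2 result were not tested. In the other libraries short genes were lower too, with medians of -0.28 to -0.08 and -0.26 to -0.11.

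Gria1 was higher than wild type in 7 of 8 classes in each of the 3 libraries, and it passed the threshold in 2, 2 and 0 of them. Between nuclei of the same sex it was higher in 7 of 8 classes in the total-labelled library (male), in 7 (female) and 6 (male) in the astrocyte-labelled, and in 5 (female) and 8 (male) in the neuron-labelled. In somatostatin neurons, at 3206, 4065, 4402 and 3944 CPM, the log2 ratios were 0.34 (0.31 to 0.38), 0.46 (0.42 to 0.49) and 0.30 (0.26 to 0.33). Gria4 in the same nuclei stood at 2052, 2498, 2863 and 2487 CPM, with ratios of 0.28, 0.48 and 0.28. With each nucleus typed by its own markers and not by cluster, Gria1 in the total-labelled library was at 0.22 and Gria4 in the astrocyte-labelled at 0.27, inside the threshold. The wild-type library was thus the lowest of the 4 for both genes. Female and male somatostatin nuclei held Gria1 at 3323 and 3032 CPM in the wild type. They held 4500 and 4370 CPM in the astrocyte-labelled and 4095 and 3811 in the neuron-labelled library. The gap to the wild-type library was wider than that between sexes, which does not show how libraries of 1 genotype vary. Other genes parted the wild-type somatostatin nuclei too. The 7 markers of the class, none at 0, summed to 8010 CPM in the wild type and to 5827, 5959 and 6377 in the others, and the choroid plexus list, 2 or 3 of its 7 genes at 0, summed to 129 CPM against 31.2 to 32.6. Their part in the Gria1 and Gria4 values was not tested. In CA1, CA2/CA3 and granule neurons the Gria1 ratios were 0.09 to 0.22, below the threshold. In Vip neurons, at 556 CPM in the wild-type and 717 CPM in the total-labelled library, the ratio was 0.37 (0.24 to 0.50), and 0.28 among nuclei of 4000 to 12000 UMIs. CCK neurons went the other way in the neuron-labelled library, at -0.13 (-0.20 to -0.06). In female nuclei of that library CCK neurons were at -0.32 (-0.43 to -0.22) and Vip neurons at -0.26 (-0.50 to -0.02), and in male nuclei at 0.03 (-0.08 to 0.14) and 0.30 (0.02 to 0.58). Between nuclei of the same sex some intervals of the 3 principal classes included 0: in granule neurons the total-labelled ratio was 0.02 (-0.01 to 0.04) in male nuclei and the neuron-labelled -0.03 (-0.06 to 0.00) in female nuclei, and in CA2/CA3 neurons the neuron-labelled ratio was 0.01 (-0.03 to 0.06) in female nuclei.

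Subicular or cortical neurons held Gria1 at 820, 1005, 1096 and 951 CPM, a ratio of 0.42 (0.37 to 0.46) in the astrocyte-labelled library. This class was made of 4 clusters. The cluster led by Fn1 held 2588 to 2853 CPM of Gria1 and made up 9.48%, 12.6%, 17.6% and 15.3% of the class. Within the clusters the astrocyte-labelled ratios were 0.09, 0.40, 0.08 and -0.75, and in the largest cluster alone 0.09. Shisa6 was higher in the astrocyte-labelled library in all 4, by 0.62, 0.14, 0.43 and 0.25.

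Gria2 stayed close to wild type. Its 24 ratios lay between -0.15 and 0.16, and none passed the threshold. It was above wild type in 7, 3 and 6 of 8 classes in the total-, astrocyte- and neuron-labelled libraries, with median ratios of 0.09, -0.02 and 0.02. The Gria2 share of pore transcripts was highest in the wild-type library in 8 of 8 classes. In granule neurons it was 41.7% (41.4 to 42.0), 40.1% (39.9 to 40.4), 37.7% (37.4 to 38.1) and 39.3% (39.0 to 39.7), and in CA1 neurons 39.4%, 38.2%, 36.7% and 37.5%. Somatostatin neurons went from 15.2% (14.8 to 15.7) in the wild type to 12% (11.6 to 12.3) in the astrocyte-labelled library. The wild-type interval overlapped that of at least 1 other library in CA2/CA3, subicular or cortical, parvalbumin, Vip and CCK neurons, and it lay above all others in granule, CA1 and somatostatin neurons. Gria2 is the shortest of the 4 pore genes, and the part of gene length in these shares was not tested. Gria3 lay between -0.24 and 0.30 and passed the threshold nowhere.

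Gria4 was above wild type in 8 of 8 classes of the total-labelled library and in 7 of 8 of the astrocyte-labelled. In the neuron-labelled library no class was below wild type, but the subicular or cortical ratio was 0.00 (-0.06 to 0.06), and the intervals in CA1 and Vip neurons included 0. In male nuclei the total-labelled library was higher in 7 of 8 classes, the astrocyte-labelled in 6 and the neuron-labelled in 5. CA2/CA3 neurons, with 198, 256, 214 and 240 CPM, gave 0.37 (0.28 to 0.47) in the total-labelled library (0.28 in the larger cluster alone), and CA1 neurons, with 246, 303, 250 and 257 CPM, gave 0.30 (0.24 to 0.37). In granule neurons, at 155, 188, 178 and 187 CPM, all 3 libraries were higher, by 0.28, 0.20 and 0.27. In the subicular or cortical class the signs differed, with 0.21 in the total-labelled and -0.16 in the astrocyte-labelled library.

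Shisa9 was above wild type in 8 of 8 classes of the total-labelled library, in 4 of 8 of the astrocyte-labelled and in 2 of 8 of the neuron-labelled. The 8 classes of the total-labelled library include some whose interval included 0, such as granule (-0.03 to 0.03) and CA1 neurons (0.07, -0.03 to 0.17). In CCK neurons, where it is high, the level was 623, 796, 784 and 699 CPM, with ratios of 0.35 (0.25 to 0.46), 0.33 (0.22 to 0.44) and 0.16 (0.06 to 0.27). In male nuclei the first 2 of these were 0.02 and 0.19. In parvalbumin neurons it stood at 356, 413, 269 and 292 CPM, above wild type in the total-labelled library by 0.22 and below it in the others, at -0.40 and -0.29. The astrocyte-labelled value was inside the threshold with doublets kept (-0.31), with each nucleus typed by its own markers (-0.28), at a finer clustering (-0.29) and in male nuclei (-0.13). Subicular or cortical neurons held 280, 291, 263 and 207 CPM, with -0.44 (-0.52 to -0.35) in the neuron-labelled library, but the 4 clusters of that class gave -0.30, -0.37, 1.40 and 0.17. That value was inside the threshold with each nucleus typed by its own markers (-0.306), at a finer clustering (-0.287) and in male nuclei (-0.318). Somatostatin neurons held 73.1, 101, 90.5 and 52.4 CPM, with ratios of 0.47, 0.31 and -0.48, the last of which was -0.15 with each nucleus typed by its own markers and -0.25 in male nuclei. In granule neurons, its main class, the ratios were 0.00, -0.13 and -0.12. Cnih3 in granule neurons was within 0.11 of wild type, and its ratios past the threshold, in CCK and parvalbumin neurons, had intervals that included 0, as did those of Cnih2 in parvalbumin neurons.

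Beyond the 8 members, 31 other genes of AMPA receptors were examined, in 210 pairs with a main class that held enough UMIs. In the total-labelled library 17 were called higher and 6 lower, in the astrocyte-labelled 23 and 19, and in the neuron-labelled 29 and 12, at median log2 ratios of 0.03, 0.05 and 0.07. As shares of the pairs these were 8.1% and 2.86%, 11% and 9.05%, and 13.8% and 5.71%, against 8.03% and 16.1%, 8.99% and 16.6%, and 10% and 15.6% of all genes. The TARPs gave 4 higher and 0 lower, 5 and 2, and 6 and 3 of 41 pairs, and the 6 genes of receptor assembly in the endoplasmic reticulum 1 and 0, 2 and 3, and 5 and 2 of 48. Trafficking and anchoring genes gave 3 and 0, 3 and 4, and 3 and 1 of 45 pairs, and the neuronal pentraxins 1 and 3, 4 and 2, and 3 and 2 of 16. The other auxiliary subunits gave 7 and 3, 9 and 8, and 10 and 4 of 52 pairs, and Adarb1 gave 1, 0 and 2 higher of 8 with none lower.

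Of the 210 pairs, 6 were higher and 1 was lower in all 3 libraries, or 2.86% and 0.48%, against 2.5% and 4.98% of all genes, so the higher share lay near the background and the lower share below it. Gsg1l, an auxiliary subunit that slows recovery of the channel, stood at 58.4, 86.9, 82.0 and 75.8 CPM in granule neurons and at 37.8, 50.3, 76.9 and 65.8 CPM in parvalbumin neurons. Cacng2, the gene of the TARP stargazin, stood at 22.1, 31.1, 28.1 and 27.8 CPM in CA1 neurons. Shisa7 in somatostatin neurons held 24.8, 32.6, 35.9 and 34.8 CPM, and Syndig1, which takes part in synapse assembly, held 35.6, 44.5, 71.8 and 49.3 CPM in Vip neurons. Nptx2, an activity-regulated pentraxin that gathers receptors, was at 2.06, 3.74, 6.18 and 3.55 CPM in granule neurons from 34, 76, 88 and 48 UMIs. That the wild-type library was the lowest of the 4 in all of these follows from how the pairs were picked. Prrt1 in CCK neurons was the 1 pair picked as lower in all 3 libraries, at 39.5, 26.0, 23.2 and 29.6 CPM.

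The TARPs and the editing enzyme sorted the same cell types in other ways than the members. Cacng2 was highest in parvalbumin neurons, at 172 to 217 CPM, against 22.1 to 31.1 in CA1. Cacng8, the gene of a TARP typical of the hippocampus, was high in all 3 principal classes, with 190 to 209 CPM in CA1, 162 to 179 in granule and 155 to 181 in CA2/CA3 neurons, and 49.8 to 61.2 in Vip neurons. Cacng3 stood at 140 to 161 CPM in somatostatin and 33.9 to 46.9 in CA2/CA3 neurons. Cacng4 belonged to oligodendrocyte precursors, at 274 to 772 CPM, with 0.2 to 0.6 in granule neurons, and Cacng5 was low, at 17.1 to 23.8 CPM in Vip neurons. Cacng7 was spread over the neuron classes at 48.7 to 114 CPM. Adarb1 stood at 788 to 882 CPM in thalamic, 171 to 219 in parvalbumin, 179 to 183 in CA2/CA3 and 58.9 to 65.9 in CA1 neurons, so its order was not that of the Gria2 share.

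**Figure D5:**
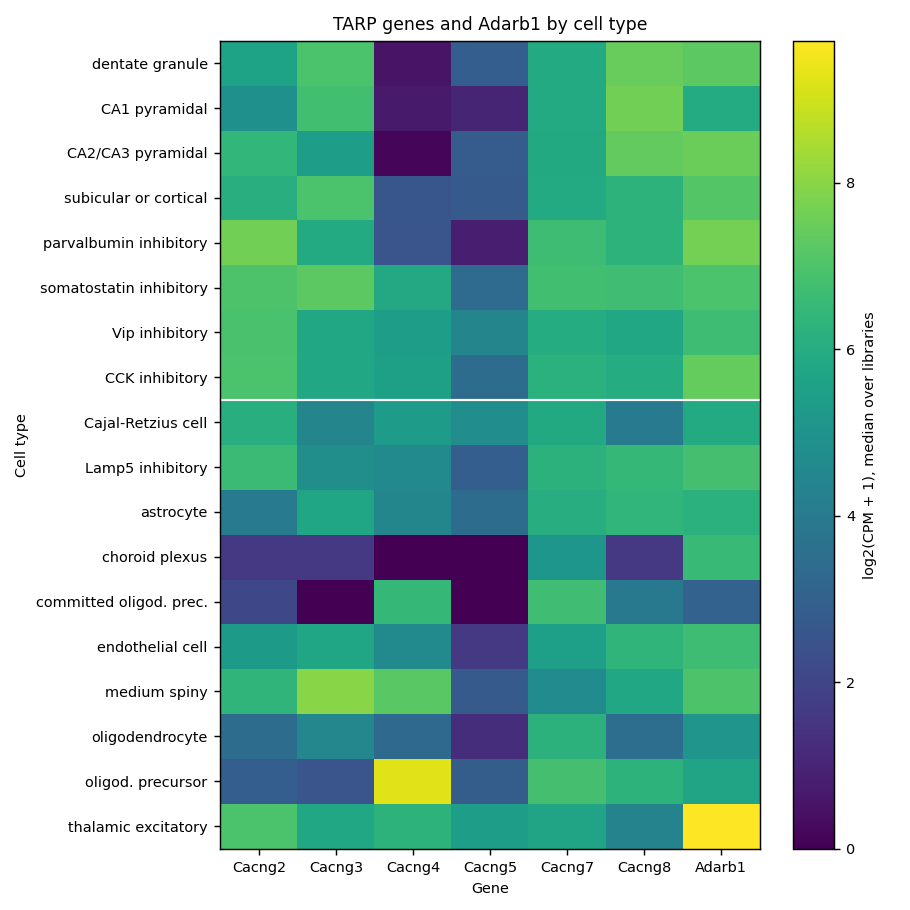
The map shows the median level over libraries of the 6 TARP genes and Adarb1 (columns) in each cell type (rows), coloured by log2(CPM + 1). Cacng4 stands out in oligodendrocyte precursors (274 to 772 CPM), Cacng2 in parvalbumin neurons (172 to 217 CPM) and Adarb1 in thalamic neurons (788 to 882 CPM).

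The genes whose levels followed each member most closely were found over the 60 sums of class and library with at least 20 nuclei, in 18 cell types and among 12846 genes, by Pearson's r of log2(CPM + 1). Sums of the same type or library are not independent, so r is a description. Gria1 was nearest to Ttll11 (r = 0.86) and Cers6 (0.86), Gria2 to Apba2 (0.85) and Prkce (0.84), Gria3 to Rbfox1 (0.87) and Grm5 (0.86). Gria4 was nearest to A230057D06Rik (0.87) and A330076H08Rik (0.86). For the auxiliary genes, Cnih2 was nearest to Klhl29 (0.78) and 1700109K24Rik (0.71), Cnih3 to Dgkh (0.74) and Tmem150c (0.73), Shisa6 to Adcy2 (0.82) and Cyfip1 (0.77), and Shisa9 to Nrg2 (0.85) and Gnal (0.76). Among the members themselves, Gria1 went with Gria3 (0.63) and Gria2 (0.61), while Gria4 and Shisa6 ran slightly against each other (-0.21).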

How the data were processed

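The authors deposited whole-number UMI counts per gene and barcode for each library, with no normalization in the values, made with Cell Ranger ARC 2.0.0 on mm10 per the submitters' processing notes; the use of strand is not stated in the sources used here. Barcodes had been selected before deposit (400 to 5998 detected genes). Here the 20211 gene symbols listed in all libraries, which held at least 99.9775% of UMIs, were joined. Nuclei needed 500 or more detected genes and no more than 5% mitochondrial UMIs, and Scrublet in scanpy 1.11.5 (expected rate 0.8% per 1000 barcodes) called and removed 3.55%, 23.5%, 5.68% and 1.72% of barcodes as doublets.

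Clustering used 2000 variable genes without the members, the other AMPA receptor genes, Mgll, sex and mitochondrial genes, then 30 components, 15 neighbours and Leiden resolution 1 (leidenalg 0.10.2). A cluster was named from marker lists for 26 types, with 3 or more markers found in at least 10% of its nuclei and 2-fold above the rest. A cluster that passed a list stayed unnamed where its leading genes held more markers of another type. It also stayed unnamed where it passed most of the list of another lineage. UMIs were summed per library and class. Ratios needed 100 UMIs of a gene in the class, all libraries together. Intervals are exact (Poisson for levels, conditional binomial for ratios, Clopper-Pearson for shares; scipy 1.17.1), and the ratio code was tested on simulated data. Across main classes the widest interval of a level was 7.02% of the level to either side for Gria2, 25.6% for Gria3, 64.5% for Cnih2 and 136% for Cnih3. TMM factors came from edgeR 4.0.16. Gene models and sequences are from GENCODE M21 (GRCm38).

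Named were the 8 members, the pathway genes past the threshold in the same direction in all 3 knockout-labelled libraries, the Cacng genes and Adarb1 by type, and the 2 genes most alike each member. The members, gene lists and marker lists were chosen with earlier results of these data known. No test of genotype was made, since each has 1 library. The alternatives tried were doublets kept, 1000 detected genes, Leiden resolution 2, a gate of 2 markers on each nucleus, members allowed among variable genes, male nuclei only, nuclei of 4000 to 12000 UMIs, TMM factors, centring on the median gene, other UMI minimums and a 1.5-fold threshold. The largest cluster of each class alone, female nuclei and gene length were added after seeing the data.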

Additional observations from a re-analysis of the deposited data

How the results depend on the processing

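No paired analysis was possible because each genotype had 1 library, and for the same reason no replicate could be left out. The count of member and class pairs past the threshold was 11, 13 and 7 in the total-, astrocyte- and neuron-labelled libraries. Restricting nuclei to 4000 to 12000 UMIs gave 23, 23 and 13, while the share of all genes past the threshold went to 31.4%, 32.5% and 31.1%. A 1.5-fold threshold gave 3, 1 and 1, where 7.81%, 7.97% and 8.13% of all genes passed. Doublets kept gave 18 in the total-labelled library, beside 25.4% of all genes, and a gate on each nucleus gave 1 in the neuron-labelled library, beside 25.6%. The mean Gria2 share in subicular or cortical neurons was 44.7%, and 43.1% with doublets kept, 43.4% with the gate and 45.5% between 4000 and 12000 UMIs. In parvalbumin neurons it was 14.1%, and 15.2% with doublets kept and 16.8% with the gate. In somatostatin neurons it was 13.5%, and 16.5% with the gate. In CCK neurons it was 26.5%, and 35.4% with the gate and 28.2% between 4000 and 12000 UMIs. Of the 31 called ratios, 6 stayed past the threshold under all 8 alternatives run on ratios: Cnih2 in CA1, CA2/CA3 and CCK neurons and Shisa9 in somatostatin neurons of the total-labelled library, and Gria1 in somatostatin and Shisa6 in subicular or cortical neurons of the astrocyte-labelled. Of the rest, 3 changed sign. Cnih2 in CCK neurons of the neuron-labelled library went from -0.36 to 0.045 with the gate. Cnih3 in parvalbumin neurons of that library went from 0.37 to -0.30 between 4000 and 12000 UMIs and to -0.19 in male nuclei. Shisa9 in CA2/CA3 neurons of that library went from 0.38 to -0.11 between 4000 and 12000 UMIs. The cause was not tested. Cnih2 in the total-labelled library was lower in 8 of 8 classes, Vip neurons with few UMIs included, under every alternative that refits the classes or nuclei, except between 4000 and 12000 UMIs (7 of 8). Shisa6 in the astrocyte-labelled library was higher in 8 of 8, except with the gate (7 of 8). Depth limits Cnih2 and Cnih3 most, since their levels rest on the fewest UMIs.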
